A study of Bos grunniens x Bos taurus and Bos grunniens with 6 samples.

Results

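The genes described here build or regulate the intercellular bridge of male germ cells and the cytokinesis machinery it derives from. They were chosen by name as TEX14, CEP55, RBM44, RACGAP1, ECT2 and ANLN, and every gene entry of the deposited table with one of these symbols was kept. This gave 7 entries of 18918, since TEX14 stands on a pair of gene identifiers and each other symbol on 1. All 7 passed the filter on low values, a mean of at least 0.5 FPKM (fragments mapped to a gene, relative to its length and to the depth of the library) over the animals, as did 15042 entries in all.

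The study sequenced mRNA from testis tissue of 3 cattle-yak and 3 yak, with 1 library per animal and every animal 4 years old. The libraries labelled TES5, TES6 and TES7 are called C1, C2 and C3 here, and Yak8, Yak9 and Yak10 are called Y1, Y2 and Y3; these are names only and need not match the numbering of animals in the study. The yak were of the Gannan breed, and the cattle-yak were F1 hybrids of a Jersey sire and a Gannan yak dam, a cross whose males are known to be sterile. The cattle-yak came from Xiahe County and the yak from Linxia County. According to the methods, cattle-yak testes were taken by castration and yak testes after euthanasia, whereas the labels give castration for both, so hybrid status, county and possibly collection cannot be told apart. The library depth behind the values was 11834987, 11175100 and 11600013 fragments in C1, C2 and C3. It was 13136129, 13104964 and 12991641 fragments in Y1, Y2 and Y3. These depths were recovered from the values themselves. A single fragment on a gene of 1 kb was worth 0.0761 to 0.0895 FPKM.

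In most dividing cells the daughter cells are cut apart at the midbody by the ESCRT machinery, which CEP55 brings to the site through PDCD6IP (ALIX) and TSG101. In the testis, dividing spermatogonia and spermatocytes stop short of this step: TEX14 binds CEP55 and keeps those partners away, so that the midbody becomes a stable ring canal through which sister germ cells share cytoplasm. In mice, loss of TEX14 abolishes these ring canals and makes the males sterile.

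The tissue was checked against marker lists of the cell types a testis can hold. Sertoli markers were present in all 6 libraries, with a summed level of 2689, 2765 and 2868 FPKM in C1, C2 and C3 and of 610.1, 530.5 and 572 FPKM in Y1, Y2 and Y3. All 13 of them were called higher in cattle-yak, meaning a Benjamini-Hochberg adjusted p under 0.05 in limma and a log2 (foldchange) beyond 1, and CLU was the most abundant. Elongating spermatid markers summed to 200.2, 107 and 70.5 FPKM in C1, C2 and C3 against 11526, 10031 and 12059 FPKM in Y1, Y2 and Y3. All 9 of these were called lower, and the most abundant was ODF2 in cattle-yak and TNP1 in yak. In these bulk libraries, fewer cells of a type and less RNA per cell cannot be told apart, and this holds for every difference given here. In tissue sections the study saw fewer spermatogonia and spermatocytes in cattle-yak tubules, and no round spermatids or sperm.

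Among the bridge and cytokinesis genes, both TEX14 entries and CEP55 fell in cattle-yak, and RBM44, RACGAP1, ECT2 and ANLN were not called. That is 3 of 7 entries called lower by limma, where 20.8% of all tested genes were called lower, and 0 called higher, where 33.4% were (54.2% in either direction). At an unadjusted p under 0.05, 5 of the 7 entries were negative and 1, RACGAP1, was positive. The share of all tested genes at this looser threshold was not taken, so no excess is read from such counts here or below. In 5 of the 7 entries all cattle-yak values lay on one side of all yak values, against 84.1% of all tested genes. The median log2 (foldchange) of the 7 entries was −0.45 (cattle-yak over yak, on FPKM + 1), beside 0.51 over all tested genes.

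The deposited FPKM values are not scaled between libraries. With median-of-ratios size factors the median of all tested genes moved by −0.50 to 0.014, and 17.7% of genes were then called higher and 27.7% lower. On that scale ANLN was called lower too, which gave 4 entries lower and 0 higher. At an unadjusted p under 0.05 in limma 6 changes were negative and 0 positive, again with no share of all tested genes beside them. The directions of RBM44 and RACGAP1 flipped there from positive to negative. Relative to the median of all genes the entries moved little between the scales, since a size factor shifts a library's genes almost alike. All 7 lay below that median on both, RACGAP1 only narrowly. Without C2 the change of RACGAP1 was 0.52, above the median of 0.49, and without the filter on low values its 0.39 was above the median of 0.19.

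**Figure D1:**
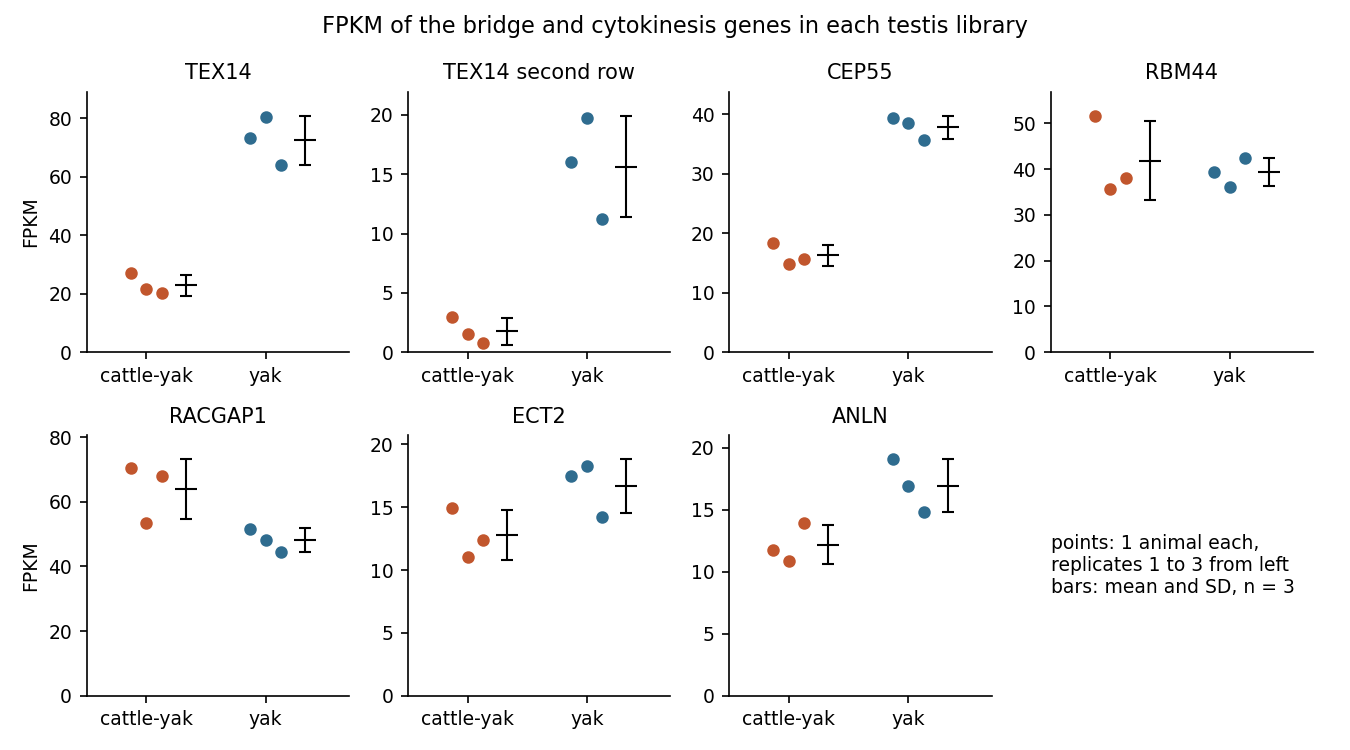
FPKM of each bridge and cytokinesis gene in every library, with 1 point per animal in replicate order from left to right and a bar for the mean and SD (n = 3); each vertical axis starts at 0 and "TEX14 second row" is the shorter TEX14 entry. The 3 cattle-yak points lie below the 3 yak points for both TEX14 entries, CEP55 and ANLN, above them for RACGAP1, and overlap with them for RBM44 and ECT2.

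TEX14 (ENSBGRG00000024451), the scaffold that holds the germ cell bridge open, had 27.0 FPKM in C1, 21.7 in C2 and 20.2 in C3. The yak animals stood at 73.1 (Y1), 80.6 (Y2) and 63.9 FPKM (Y3). The highest cattle-yak value was well under the lowest yak value, and the values rested on 1429 to 6454 fragments per library. The mean was 22.9 ± 3.59 FPKM in cattle-yak and 72.5 ± 8.37 FPKM in yak (SD, n = 3 each), 3.16-fold higher in yak. The log2 (foldchange) was −1.62 (SE 0.14, 95% interval −1.94 to −1.30, limma adjusted p = 1.1e-05). Under median-of-ratios scaling it was −2.22. Relative to the median of all genes TEX14 stood at −2.14 on the deposited scale and at −2.24 after the rescaling.

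A further entry with the symbol TEX14 (ENSBGRG00000023901) was much less abundant, with 2.98, 1.54 and 0.740 FPKM in C1, C2 and C3 and 16.0, 19.7 and 11.2 FPKM in Y1, Y2 and Y3. It is a shorter gene model of 2098 bases, against 6111 for the main entry, and carries no description in the table. Its values are uncertain, because the counting could have split reads between copies that resemble each other. The groups did not overlap, although the cattle-yak values rested on 74, 36 and 18 fragments. Its log2 (foldchange) was −2.65 (SE 0.32, limma adjusted p = 7.9e-05).

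The level of this entry relative to the main TEX14 entry was compared after the data had been seen. It stood at 0.110, 0.0709 and 0.0367 of the main entry in C1, C2 and C3 and at 0.219, 0.245 and 0.175 in Y1, Y2 and Y3. The log2 ratio of FPKM + 1 differed by −1.02 (cattle-yak minus yak), and each cattle-yak ratio was under each yak ratio. With pseudocounts of 0.1 and 0.01 the difference was −1.58 and −1.67, since the low cattle-yak values are compressed by a pseudocount of 1. A two-sided exact permutation test gave p = 0.1, and no split of 6 animals into groups of 3 can give a smaller one. In cattle-yak the animals ranked C1, C2, C3 from high to low in both TEX14 entries, as in CIT, PLK1, VPS4A, SEPTIN10 and SEPTIN12 among others. The summed round spermatid markers, at 64.8, 37.5 and 22.8 FPKM, ranked likewise. The sums of elongating spermatid markers (200.2, 107 and 70.5 FPKM) and of Leydig markers (12423, 11846 and 10434 FPKM) in C1, C2 and C3 had the same order. The share of all tested genes with this order was not taken, so nothing is read from it. The part of any of these cell types in the TEX14 values was not tested.

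CEP55 (ENSBGRG00000023070), the midbody protein to which TEX14 binds, had 18.3, 14.8 and 15.7 FPKM in C1, C2 and C3. The yak values were 39.3, 38.5 and 35.6 FPKM in Y1, Y2 and Y3, each higher than every cattle-yak value. CEP55 is not restricted to germ cells, since dividing somatic cells use it for abscission. The means were 16.3 ± 1.82 FPKM in cattle-yak and 37.8 ± 1.94 FPKM in yak (SD, n = 3 each), 2.32-fold higher in yak. The log2 (foldchange) was −1.17 (SE 0.11, 95% interval −1.44 to −0.91, limma adjusted p = 2.4e-05), and −1.76 under median-of-ratios scaling.

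Whether TEX14 and CEP55 changed alike was asked of their ratio, which no scaling of the libraries can move except through the pseudocount. TEX14 stood at 1.48, 1.46 and 1.28 times the FPKM of CEP55 in C1, C2 and C3 and at 1.86, 2.09 and 1.79 times in Y1, Y2 and Y3. TEX14 was thus the more abundant of the pair in every animal, by a smaller margin in every cattle-yak animal. The log2 ratio of FPKM + 1 differed by −0.45 (cattle-yak minus yak, exact permutation test, two-sided, p = 0.1, the smallest possible).

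RBM44 (ENSBGRG00000020637), an RNA-binding protein of the bridge that binds TEX14, had 51.7, 35.6 and 38.2 FPKM in C1, C2 and C3 and 39.5, 36.2 and 42.5 FPKM in Y1, Y2 and Y3. The groups overlapped, with C1 above and C2 below all yak animals. The log2 (foldchange) was 0.069 (SE 0.15, 95% interval −0.28 to 0.41, limma adjusted p = 0.682). It was −0.091 without C1 and −0.54 under median-of-ratios scaling, so its sign rests on that animal and on the scaling. Relative to the median of all genes RBM44 stood at −0.44, closer to it than TEX14 at −2.14 or CEP55 at −1.68.

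RACGAP1 (ENSBGRG00000002692) is the GTPase-activating subunit of centralspindlin, the complex that bundles midzone microtubules and stays in the germ cell bridge. It had 70.4, 53.4 and 68.1 FPKM in C1, C2 and C3 and 51.7, 48.3 and 44.5 FPKM in Y1, Y2 and Y3. Every cattle-yak value was above every yak value, by a narrow margin between C2 and Y1. The log2 (foldchange) of 0.39 (SE 0.13, limma adjusted p = 0.0192) did not reach the fold threshold, and it was −0.21 under median-of-ratios scaling. At −0.12 relative to the median of all genes, RACGAP1 was the member nearest to it.

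KIF23, the kinesin that forms centralspindlin with RACGAP1, had 23.2, 17.1 and 23.1 FPKM in C1, C2 and C3 and 22.6, 26.1 and 24.4 FPKM in Y1, Y2 and Y3. The groups overlapped, and the log2 (foldchange) was −0.21 (limma adjusted p = 0.200), and −0.80 (limma adjusted p = 0.0014), short of the fold threshold, under median-of-ratios scaling. Without C2 it was −0.070. The kinesin was less abundant per length than its partner in all 6 animals.

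ECT2 (ENSBGRG00000003533), the exchange factor that RACGAP1 recruits to activate RhoA at the division plane, had 14.9, 11.1 and 12.4 FPKM in C1, C2 and C3. In Y1, Y2 and Y3 it had 17.5, 18.3 and 14.2 FPKM, so that Y3 fell within the cattle-yak range. The log2 (foldchange) was −0.36 (SE 0.15, limma adjusted p = 0.0528), and −0.94 under median-of-ratios scaling. The ratio of ECT2 to RACGAP1 was 0.212, 0.207 and 0.182 in C1, C2 and C3 and 0.339, 0.378 and 0.320 in Y1, Y2 and Y3. ECT2 was thus scarcer relative to its recruiter in every cattle-yak animal. The log2 ratio of FPKM + 1 differed by −0.76 (cattle-yak minus yak, exact permutation test, two-sided, p = 0.1, the smallest possible), although neither gene was called by itself.

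ANLN (ENSBGRG00000000516) encodes anillin, which ties RhoA, actin, myosin and septins together in the contractile ring. It had 11.7, 10.9 and 13.9 FPKM in C1, C2 and C3 and 19.1, 17.0 and 14.8 FPKM in Y1, Y2 and Y3. The groups were apart, with C3 and Y3 close to each other. The log2 (foldchange) was −0.45 (SE 0.14, 95% interval −0.77 to −0.12, limma adjusted p = 0.0180), short of the fold threshold, and it passed the threshold at −1.02 under median-of-ratios scaling.

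The order of the levels differed between the groups. In yak TEX14 was the most abundant member, at a mean of 72.5 FPKM, followed by RACGAP1 at 48.2. RBM44 at 39.4 and CEP55 at 37.8 overlapped, and so did ANLN, ECT2 and the shorter TEX14 entry at 16.9, 16.7 and 15.6. In cattle-yak RACGAP1 came first at 64.0 FPKM, then RBM44 at 41.8, TEX14 at 22.9 and CEP55 at 16.3. ECT2 at 12.8 overlapped there with CEP55 and with ANLN at 12.2, and the shorter TEX14 entry was last at 1.75 FPKM.

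**Figure D2:**
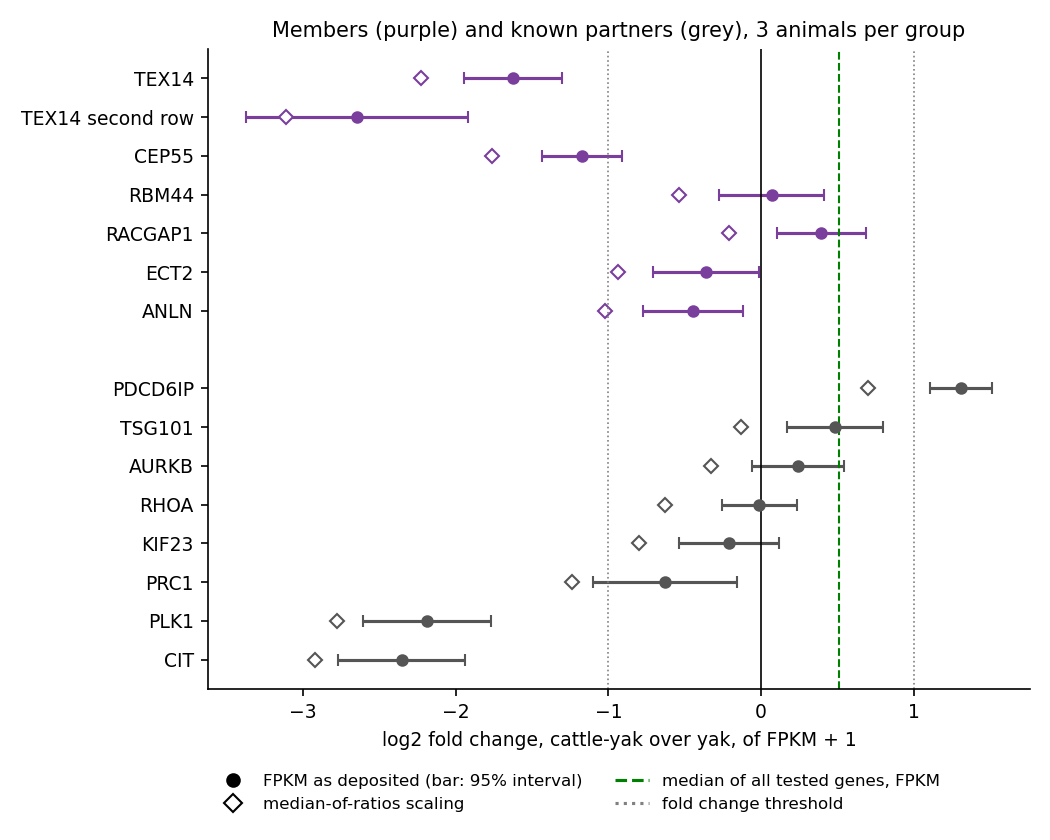
Log2 fold change of FPKM + 1, cattle-yak over yak, for the members in purple and their known partners in grey, with 3 animals per group; filled points are on the deposited scale with 95% intervals, open diamonds are after median-of-ratios scaling, and the dashed line is the median of all tested genes, 0.51. The intervals of both TEX14 entries lie wholly below −1, that of CEP55 reaches from −1.44 to −0.91, and the partners run from PDCD6IP at 1.31 to CIT at −2.35.

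The partners that TEX14 keeps from CEP55 did not fall with it. PDCD6IP had 102, 103 and 103 FPKM in C1, C2 and C3 and 38.4, 41.0 and 43.5 FPKM in Y1, Y2 and Y3, and the groups were far apart. Its log2 (foldchange) was 1.31 (SE 0.089, limma adjusted p = 3.3e-06), called higher, and 0.70 and not called under median-of-ratios scaling. TSG101 had 192, 152 and 172 FPKM in C1, C2 and C3 against 103, 129 and 138 FPKM in Y1, Y2 and Y3, without overlap. At 0.48 (limma adjusted p = 0.0104) it was not called, and it flipped to −0.13 under median-of-ratios scaling. TSG101 stands on 2 entries, of which the more abundant is given. Of the 7 genes listed as the bridge and its known partners, 1 was called higher (14.3%, against 33.4% of all tested genes) and 2 lower (28.6% against 20.8%), with a median of 0.069 beside 0.51. Under median-of-ratios scaling 0 were higher and 2 lower, with a median of −0.54.

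The list of centralspindlin, RhoA activation and midzone genes held 16 symbols, of which KIF4A and INCENP were not analysed here. Of the 14 tested, 0 were called higher (33.4% of all tested genes) and 3 lower by limma (21.4%, near the 20.8% of all tested genes), while 5 were positive and 5 negative at an unadjusted p under 0.05. The median was 0.040 (−0.56 under median-of-ratios scaling, with 0 higher and 4 lower). The 3 that fell were CIT, PLK1 and BIRC5. CIT, the citron kinase of the midbody, had 10.1, 7.07 and 6.27 FPKM in C1, C2 and C3 and 41.9, 50.3 and 38.4 FPKM in Y1, Y2 and Y3. No cattle-yak value came near the yak range, and the log2 (foldchange) was −2.35 (SE 0.18, limma adjusted p = 6.3e-06).

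PLK1, the kinase that readies RACGAP1 for ECT2, had 17.1, 12.8 and 11.9 FPKM in C1, C2 and C3 and 72.6, 76.8 and 52.4 FPKM in Y1, Y2 and Y3. The groups were again well apart, at a log2 (foldchange) of −2.19 (SE 0.18, limma adjusted p = 9.9e-06). BIRC5 (survivin), a subunit of the chromosomal passenger complex, changed by −1.16 (SE 0.19, limma adjusted p = 5.3e-04). Its call rested on C2, without which the change was −0.95.

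The remaining partners were not called. PRC1, which crosslinks midzone microtubules, had 60.7, 33.1 and 50.0 FPKM in C1, C2 and C3 and 71.6, 80.1 and 66.5 FPKM in Y1, Y2 and Y3. The groups did not overlap, and its log2 (foldchange) of −0.63 (limma adjusted p = 0.0194) became a call at −1.24 under median-of-ratios scaling and was −0.39 without C2. AURKB, the kinase of the passenger complex, stood at 0.24 (limma adjusted p = 0.119; −0.33 under median-of-ratios scaling). RHOA, the GTPase that ECT2 activates, had a mean of 337 ± 30.1 FPKM in cattle-yak and 339.7 ± 26.2 FPKM in yak (SD, n = 3 each), a difference within the spread between animals on the deposited scale. Under median-of-ratios scaling its log2 (foldchange) moved from −0.012 to −0.63 (limma adjusted p = 0.0014), still short of a call.

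**Figure D3:**
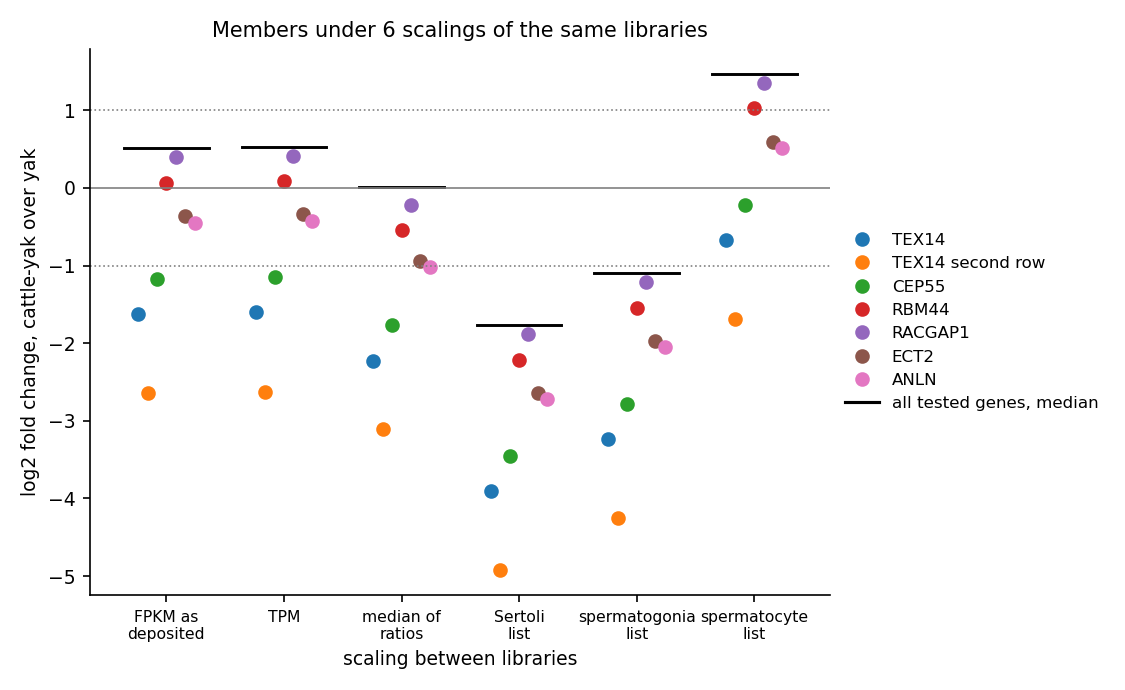
Log2 fold change of the 7 entries, cattle-yak over yak, under 6 ways of scaling the libraries, with the median of all tested genes as a black line; dotted lines mark the fold threshold of 1 in either direction. The entries keep the same order and lie below the line in every scaling shown, and their signs depend on the scaling. Each scaling moves all genes of a library almost alike, so the shared order and place below the line follow largely from construction. All 7 are negative under median-of-ratios scaling and when libraries are centred on Sertoli or spermatogonia markers. When libraries are centred on spermatocyte markers, 4 are positive.

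ANLN belongs to the contractile ring, and 24 of 27 listed contractile ring genes and septins were tested (MYL9, MYL12A and MYL12B were not analysed here). Of these 14 were called higher (58.3%, against 33.4% of all tested genes) and 5 lower (20.8%, the share of all tested genes), with a median of 1.22 beside 0.51 over all genes. Under median-of-ratios scaling 6 were higher and 6 lower (25.0% each, against 17.7% and 27.7%), with a median of 0.69. SEPTIN9, a septin of late cytokinesis, had 58.4, 64.8 and 62.0 FPKM in C1, C2 and C3 and 10.6, 10.1 and 12.0 FPKM in Y1, Y2 and Y3. SEPTIN5 at 2.29 and PFN1 (profilin, an actin monomer binder) at 1.90 followed SEPTIN9 at 2.40 as the largest increases in log2 (foldchange). The largest decrease was that of SEPTIN12, a testis septin of the sperm annulus, from 163, 148 and 155 FPKM in Y1, Y2 and Y3 to 11.2, 4.67 and 1.59 FPKM in C1, C2 and C3. Its log2 (foldchange) was −4.79 (SE 0.47, limma adjusted p = 2.4e-05), followed by SEPTIN10 at −2.76 and SEPTIN3 at −2.19. ANLN thus lay between both ends of this list and did not share the positive median.

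CEP55 opens abscission, and 24 of 25 listed abscission genes were tested (ZFYVE19 was not analysed here). Of these 10 were called higher (41.7%, against 33.4% of all tested genes) and 2 lower (8.33% against 20.8%), with a median of 0.45 beside 0.51. Under median-of-ratios scaling 3 were higher and 4 lower (12.5% and 16.7%, against 17.7% and 27.7%), with a median of −0.11. The 2 that fell were CEP55 and VPS4A, an ATPase that takes ESCRT filaments apart. VPS4A had 26.0, 20.9 and 19.1 FPKM in C1, C2 and C3 and 89.0, 87.1 and 87.0 FPKM in Y1, Y2 and Y3. Its paralog VPS4B went the other way, with 42.0, 43.1 and 45.9 FPKM in C1, C2 and C3 and 14.4, 10.7 and 14.7 FPKM in Y1, Y2 and Y3. Their log2 (foldchange) values were −1.96 (SE 0.12, limma adjusted p = 2.2e-06) and 1.66 (SE 0.14, limma adjusted p = 9.2e-06), and both were called under median-of-ratios scaling as well. The filament subunit CHMP4B rose by 1.97 (the more abundant of 2 entries, so uncertain), CHMP7 by 1.93 and the ESCRT-I subunit VPS37C by 1.08 in log2 (foldchange), of which VPS37C lost its call under median-of-ratios scaling and, at 0.93, without Y1. The other CHMP4B entry, which was the more abundant of the 2 in yak (11.2 against 8.76 FPKM), was not called. Its log2 (foldchange) was 0.59, and 0.018 under median-of-ratios scaling.

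**Figure D4:**
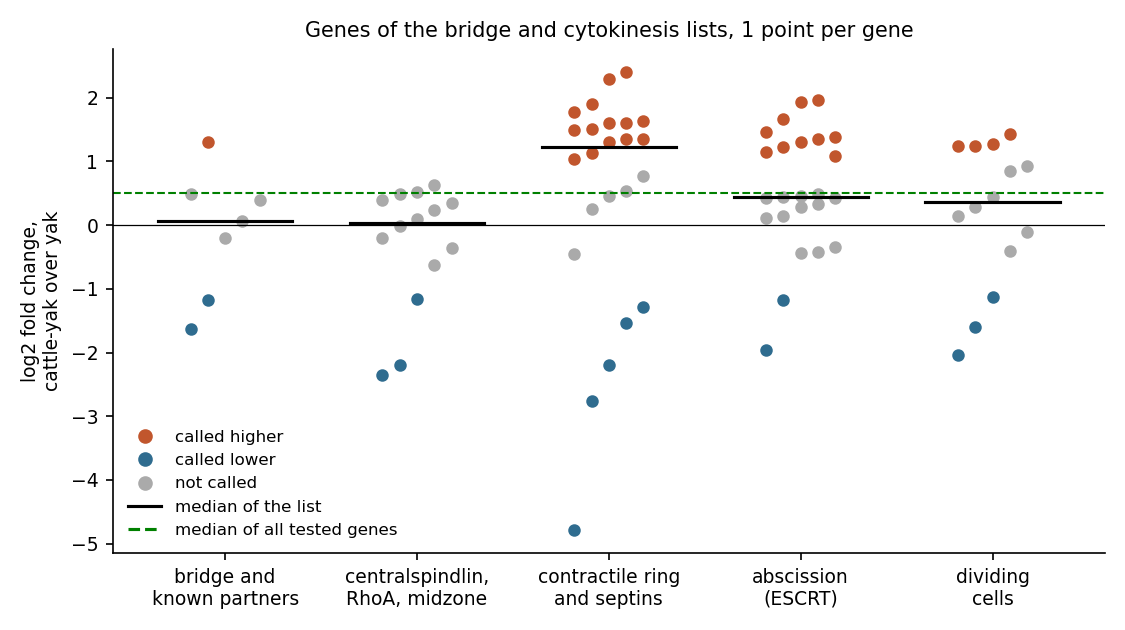
Log2 fold change, cattle-yak over yak, of the tested genes in 5 lists around the bridge, with 1 point per gene, orange for called higher, blue for called lower and grey for not called; black lines are list medians and the dashed line the median of all tested genes. The contractile ring list has its median above the dashed line, at 1.22, and the bridge and centralspindlin lists have theirs at 0.069 and 0.040.

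A list of general mitotic genes was set beside the members. Of 18 symbols 14 were tested (MKI67, MCM4, CCNB1 and BUB1B were not analysed here), and 4 were called higher and 3 lower, with a median of 0.36. These shares, 28.6% and 21.4%, were near the 33.4% and 20.8% of all tested genes, and under median-of-ratios scaling 0 were higher and 3 lower, with a median of −0.24. Their summed level was 816, 702 and 841 FPKM in C1, C2 and C3 and 726, 811 and 732 FPKM in Y1, Y2 and Y3, which overlapped, and by group mean PCNA led in cattle-yak and CDC20 in yak, where PCNA was above it in Y3. The replication genes MCM3 and MCM2 rose by 1.43 and 1.25 and the spindle assembly factor TPX2 by 1.28 in log2 (foldchange), and none of these 3 was called under median-of-ratios scaling. CDC20, CCNB2 and BUB1, which act in mitotic exit, entry and checkpoint, had log2 (foldchange) values of −2.04, −1.60 and −1.12. CDC20 and CCNB2 each stand on 2 entries, of which the more abundant is given, so their values are uncertain. TEX14 and CEP55 moved in the direction of CDC20, CCNB2 and BUB1. These 3 are named because they were called lower, whereas 4 of the list were called higher.

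By the smallest Euclidean distance of gene-centred log2 (FPKM + 1) over the 6 animals, the genes most like TEX14 were WBP11 (0.0865), ALDH1A2 (0.0980) and PNPLA7 (0.128). The shorter TEX14 entry was nearest to EFCAB5 (0.184), CERS3 (0.334) and POMT1 (0.339). CEP55 was nearest to ZC3H14 (0.106), S100PBP (0.111) and YAE1 (0.116). For RBM44 they were ZC3H15 (0.158), YTHDC2 (0.173) and PIGH (0.174), and for RACGAP1 they were GTF2B (0.151), ATR (0.154) and MRPL45 (0.163). ECT2 was closest to MVK (0.148), FLYWCH2 (0.150) and GBF1 (0.155), and ANLN to ATG2B (0.155) and QRSL1 (0.175). None of the members was among the 3 nearest genes of another member, and WBP11, ZC3H15 and GTF2B each stand on 2 entries.

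The annotation deposited with the values names the cell parts to which a gene belongs, and these terms were looked up after the files had been seen. The term intercellular bridge stood on 4 of the 7 member entries and on 37 entries in all, of which 35 were tested. Of those 35, 14 were called higher (40.0%, against 33.4% of all tested genes) and 6 lower (17.1% against 20.8%), with a median of 0.62, and 6 and 8 under median-of-ratios scaling. These shares are near those of all tested genes. Both TEX14 entries and CEP55 were among the 6, and RBM44, the other member with the term, was among the 15 not called. The term midbody stood on 142 entries, 44 of them higher and 28 lower, with a median of 0.42 (25 higher and 37 lower under median-of-ratios scaling), and these 31.0% and 19.7% were likewise near the shares of all tested genes. Cleavage furrow (19 higher and 8 lower of 40 tested, 47.5% and 20.0%), Flemming body (8 and 2 of 22, 36.4% and 9.09%) and mitotic cytokinesis (23 and 13 of 56, 41.1% and 23.2%) each stood on 2 member entries. Their medians were 0.75, 0.63 and 0.59, and under median-of-ratios scaling they held 7, 3 and 12 genes called higher and 9, 4 and 17 called lower. ECT2 and ANLN carried no term in this table.

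The cell types that make bridges differed between the groups in marker level, as did those that do not. Spermatogonia markers were called higher in 9 of 13 (69.2%, against 33.4% of all tested genes) and lower in 0, with a median of 1.72. At an unadjusted p under 0.05 in limma, 12 of these markers were positive and 0 negative. Under median-of-ratios scaling 8 were called higher and 0 lower, with a median of 1.15. They summed to 912, 1027 and 1142 FPKM in C1, C2 and C3 and to 259, 273 and 334 FPKM in Y1, Y2 and Y3, with DMRT1, which Sertoli cells also express, as the most abundant. These sums are relative to the RNA of each library and do not count cells, and the study's sections showed fewer spermatogonia in cattle-yak. Spermatocyte markers were called higher in 1 and lower in 3 of 12, with a median of −0.46 (0 and 6, with a median of −1.06, under median-of-ratios scaling). The 25.0% called lower were near the 20.8% of all tested genes, and the 8.33% called higher stood beside 33.4%. Under median-of-ratios scaling the 50.0% called lower stood beside 27.7% of all tested genes. The spermatocyte markers summed to 431, 239 and 382 FPKM in C1, C2 and C3 and to 661, 684 and 681 FPKM in Y1, Y2 and Y3, and by group mean SYCP3 led in cattle-yak and PIWIL1 in yak. PIWIL1, CCNA1 and SPATA16 were the 3 called lower and SYCP3 was the 1 called higher. The 3 called lower had means of 148, 75.3 and 141 FPKM in yak and of 15.7, 6.85 and 9.30 FPKM in cattle-yak. The lower spermatocyte sum in cattle-yak rested on them. C2 was the lowest cattle-yak animal in this sum, as it was in CEP55, RBM44, RACGAP1, ECT2 and ANLN. The share of all tested genes that were lowest in C2 was not taken, so nothing is read from this either.

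Round spermatid markers were called lower in 7 of 7, with a median of −5.04. Their sum in yak was 1056, 1046 and 1094 FPKM in Y1, Y2 and Y3, with ACTL7A the most abundant there and ZPBP in cattle-yak, and SPACA3 and TXNDC2 were listed at 0 in at least 1 cattle-yak library. Elongating spermatid markers had a median of −6.65, and SPATA19 was listed at 0 in C3. No marker of the lists was at 0 in all animals of a group.

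Of the somatic lists, Leydig markers were called higher in 6 of 6, with a median of 1.98 and sums of 12423, 11846 and 10434 FPKM in C1, C2 and C3 and 4864, 3339.8 and 3526 FPKM in Y1, Y2 and Y3, nearly all of it INSL3. Peritubular myoid markers were also called higher in 6 of 6, with a median of 2.05, sums of 568, 764 and 576 against 142, 115 and 119 FPKM, and ACTA2 as the most abundant. Endothelial markers (4 higher and 1 lower of 7, median 1.13; 0 and 1 under median-of-ratios scaling) summed to 49.7, 55.8 and 34.4 against 34.6, 29.7 and 34.4 FPKM, led by KDR in cattle-yak and in yak by VWF, the 1 marker called lower. Macrophage markers (2 higher and 2 lower of 6, 33.3% each, median 0.62) summed to 38.4, 51.4 and 38.1 against 106, 102 and 93.5 FPKM, led by CD163 in cattle-yak and by AIF1 in yak. Of all tested genes 33.4% were called higher and 20.8% lower, with a median of 0.51. The share called higher was thus near that of all genes among macrophage markers. Of these markers AIF1 and CD14 were called lower in cattle-yak, and CD163 and CD68 higher, calls that both of the latter lost under median-of-ratios scaling. The lower macrophage sum in cattle-yak rested on AIF1 and CD14. On the deposited scale CD68, CSF1R, CD163 and ITGAM were each higher in every cattle-yak animal than in any yak animal. Sertoli markers had a median of 2.24. Under median-of-ratios scaling 11 of 13 Sertoli, 5 of 6 Leydig (not INSL3, nearly all of the Leydig sum, at 0.94), 6 of 6 myoid and 0 of 6 macrophage markers were called higher, and all round and elongating spermatid markers were still called lower. How much of the change in TEX14, CEP55 or any other member follows from these shifts was not tested, and the fragment totals, which were lower in all cattle-yak libraries, were not tested for their part either.

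**Figure D5:**
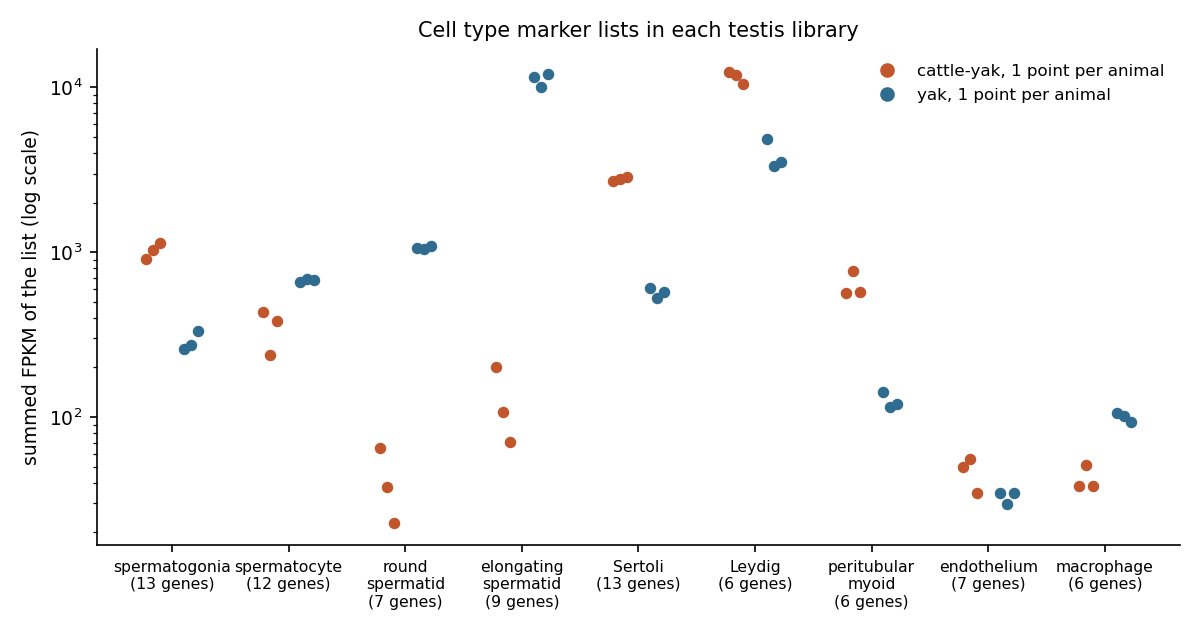
Summed FPKM of 9 cell type marker lists in each library, on a log axis, with 1 point per animal and orange for cattle-yak. Spermatogonia, Sertoli, Leydig and myoid sums are higher in all 3 cattle-yak animals, spermatocyte and spermatid sums are lower, and elongating spermatid sums drop from at least 10031 FPKM in yak to at most 200.2 FPKM in cattle-yak.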

How the data were processed

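Testis mRNA libraries of 3 cattle-yak and 3 yak were compared, grouped by their labels. According to the methods and the submitters' processing notes, the authors trimmed reads, mapped them to the yak genome with HISAT2 for both groups and calculated FPKM with Cufflinks. The study reports a lower share of mapped reads in every cattle-yak library than in any yak library. The part that mapping hybrid reads to a yak genome has in any difference was not tested. The deposited FPKM values are per gene length and library depth, with no scaling between libraries. Whole fragments, and with them depth and gene length, were recovered from ratios of FPKM between libraries for 17973 of 18918 genes. Of their 107838 values, 100% lay within 0.03 of a whole number. This is no separate check, because a gene had to meet that limit to be recovered. Of 17630 genes with simulated fragments, 98.58% were recovered.

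The 15042 genes with a mean of at least 0.5 FPKM were tested between groups after adding a pseudocount of 1 and taking log2, using the R package limma (version 3.58.1, R 4.3.3) with a variance trend, two-sided and without covariates. Calls required an adjusted p (Benjamini-Hochberg, all tested genes) under 0.05 and a log2 (foldchange) beyond 1. This scale understates changes of low values. Ratios were tested by exact permutation over 10 splits of the animals (smallest p 0.1). Python 3.11.15, numpy 2.4.6, pandas 2.3.3, scipy 1.17.1 and matplotlib 3.10.9 were used, and the fit and the recovery were tested on simulated data.

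Named were the members, their partners KIF23, PDCD6IP, TSG101, PRC1, PLK1, AURKB, RHOA and CIT, the 3 called genes with the largest and the 3 with the smallest log2 (foldchange) of each of 5 pathway lists, and the 3 nearest genes of each member with a mean of at least 5 FPKM, of which 1 is not reported here. Members and lists were chosen with earlier results of these data known. For a symbol on several entries the most abundant stood in a list. Alternatives were other pseudocounts, filters, scalings and priors, voom in limma on the recovered fragments, and the omission of each animal. The authors' own comparisons with DESeq were not used here.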

Additional observations from a re-analysis of the deposited data

How the results depend on the processing

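Each log2 (foldchange) was recomputed under 18 alternatives, and the shorter TEX14 entry kept its direction and its call in all of them. TEX14 and CEP55 lost their call only when libraries were centred on the spermatocyte list, at −0.67 and −0.22. In that setting 9331 genes were called higher and 1779 lower, with 2 members higher and 1 lower: RBM44 was 1.02, RACGAP1 1.35, ECT2 0.60, ANLN 0.51, KIF23 0.75, PRC1 0.33 and RHOA 0.94, BIRC5, BUB1 and CCNB2 lost their calls at −0.21, −0.17 and −0.65, and TSG101 and AURKB were called at 1.44 and 1.20. Under median-of-ratios scaling 2655 genes were called higher, and RBM44 was −0.54, RACGAP1 −0.21, ANLN −1.02, TSG101 −0.13 and AURKB −0.33. Centred on the Sertoli list, 28 genes were called higher and 11346 lower, with 7 members lower: RBM44 was −2.21, RACGAP1 −1.88, ECT2 −2.64, ANLN −2.72, PDCD6IP −0.97, TSG101 −1.80, AURKB −2.04, CHMP4B −0.31, CHMP7 −0.35, MCM2 −1.03, MCM3 −0.85, PFN1 −0.38, TPX2 −1.0, VPS37C −1.20 and VPS4B −0.62, and SEPTIN5 and SEPTIN9 lost their calls at 0.016 and 0.12. Centred on the spermatogonia list, 209 genes were called higher and 7996 lower, with 7 members lower: RBM44 was −1.54, RACGAP1 −1.21, ECT2 −1.97, ANLN −2.05, PDCD6IP −0.30, TSG101 −1.13, AURKB −1.37, MCM2 −0.36, MCM3 −0.18, TPX2 −0.33 and VPS37C −0.53, and CHMP4B, CHMP7, PFN1, SEPTIN5, SEPTIN9 and VPS4B lost their calls at 0.36, 0.32, 0.29, 0.69, 0.79 and 0.050. KIF23, PRC1 and RHOA were called lower in both of the latter settings. These settings shift all genes of a library together, so their changes follow from their construction, and which scale is right was not tested. With TPM scaling RHOA was 0.0088. Leaving out each animal gave −0.091 to 0.17 for RBM44 and −0.074 to 0.063 for RHOA, and 3 members were called lower and 0 higher (limma) without any 1 animal. The ratio differences of TEX14 to CEP55 and of ECT2 to RACGAP1 kept their sign under other pseudocounts and without any 1 animal. So did that of the shorter to the main TEX14 entry, added after seeing the data, at −1.58 and −1.67 with pseudocounts of 0.1 and 0.01 and at −1.21 to −0.82 without 1 animal. RACGAP1 lay above the median of all genes without C2 and without the filter on low values. Among the members, depth limits the shorter TEX14 entry most, with 18 fragments in C3, and 3 animals per group limit every test.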
